A study of Bos taurus with 12 samples.

Results

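Fatty acid uptake and binding was followed through 10 named genes in bovine intramuscular preadipocytes induced to become fat cells: LPL, CD36, SLC27A1, SLC27A4, ACSL1, ACSL3, ACSL4, FABP3, FABP4 and FABP5. They were taken by gene symbol from the mRNA expression matrix, in which each has 1 row, so that 10 of the 33714 rows belong to them. All 10 had a mean of at least 0.1 FPKM (fragments per kilobase of transcript, scaled to the mapped fragments of the library) over the 12 libraries, as did 15402 rows in all. Newborn Qinchuan cattle gave the cells, which were isolated from longissimus dorsi muscle. There were 3 libraries of cells before induction (0 d) and 3 each of cells 3, 6 and 9 days after it (3 d, 6 d and 9 d). All cells were kept in DMEM-F12 with serum, and 0 d cells received no inducer. Induction began near 90% confluence with 0.5 mM IBMX (a phosphodiesterase inhibitor), dexamethasone (a glucocorticoid) and insulin, followed after 48 hours by insulin alone, so that 3 d, 6 d and 9 d cells were all sampled on insulin. The labels give 5 μg/ml insulin and 1 g/mL dexamethasone, and the methods of the study give other amounts for both. The labels describe poly(A) selection of the RNA and the study's methods describe removal of rRNA. The sample titles number the replicates and the study's methods call them biological, and the study describes the cells of all days as 1 batch. The animals behind each library are not given in the sources used here, so p-values measure the spread between these libraries.

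Fat cells take up fatty acids by a chain of steps. Lipoprotein lipase frees fatty acids from circulating triglyceride, the membrane receptor CD36 and the fatty acid transport proteins bring them into the cell, and long-chain acyl-CoA synthetases trap them there as acyl-CoA. Fatty acid-binding proteins carry them through the cytosol, to lipid droplets, mitochondria or the nucleus, where fatty acids are ligands of the PPAR receptors. FABP4 is the abundant form of adipocytes, FABP3 that of heart and skeletal muscle, and FABP5 is widely expressed.

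The summed FPKM of a library ranged from 1221194 (the first 3 d library) to 1371794 (the first 9 d library). FPKM hold no read numbers, so the depth behind a single value is not known from them. Ordered by mean FPKM over the 12 libraries, which is a level per length, ACSL1 (41.2) and SLC27A1 (36.1) came first, followed by FABP4 (32.5), ACSL4 (17.5), FABP5 (15.9), SLC27A4 (8.99), ACSL3 (7.06), LPL (6.12), FABP3 (4.27) and CD36 (3.39). The median of all tested mRNAs was 5.2 FPKM, with FABP3 and CD36 below it. These means pool days that differ, and by day CD36 at 9 d (8.07) and FABP3 at 6 d (5.9) were above 5.2 FPKM, while FABP4 (3.3) and LPL (4.53) at 0 d, LPL (3.03) and SLC27A4 (5.02) at 6 d and SLC27A4 (4.64) at 9 d were below it.

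**Figure D1:**
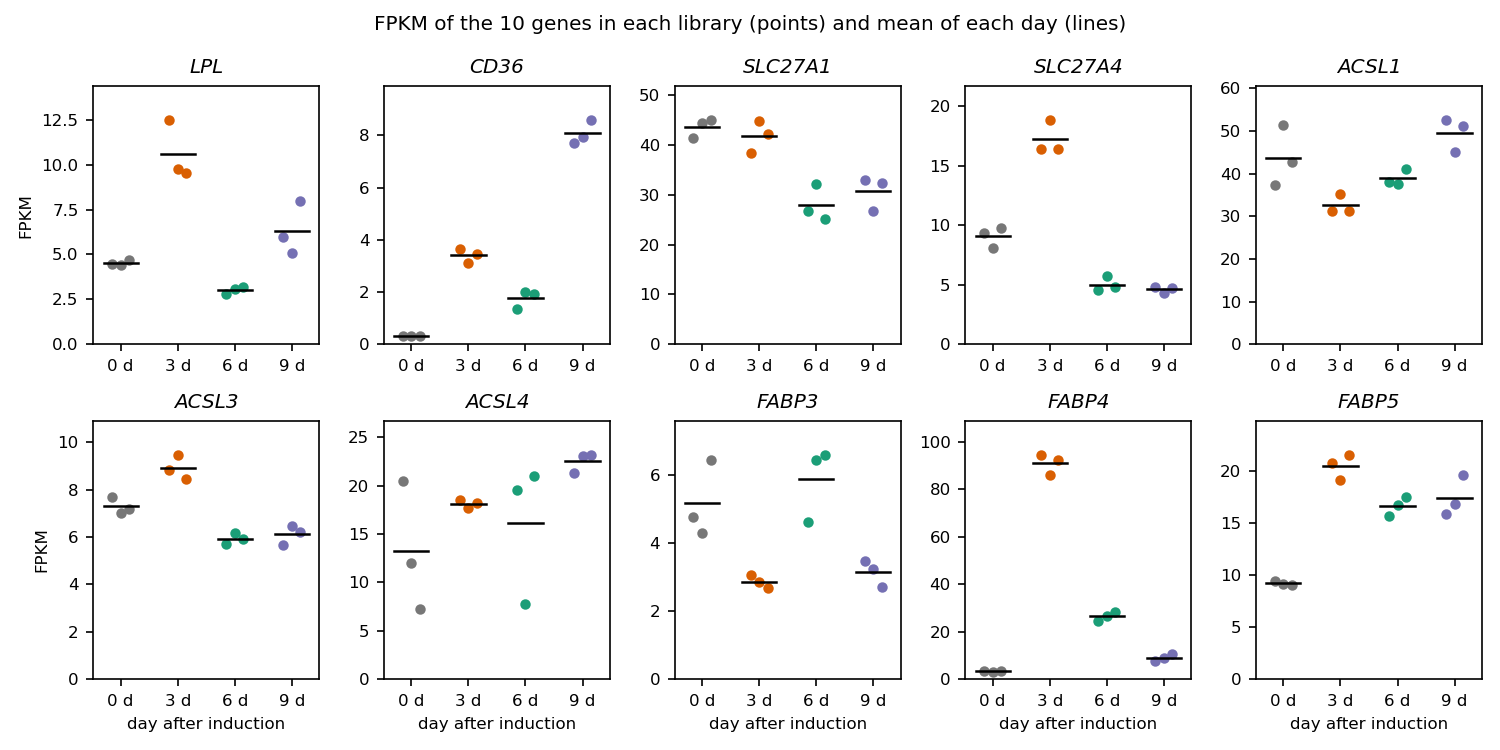
FPKM of the 10 genes (vertical axis, linear, from 0) by day after induction (horizontal axis), with a point for each of the 12 libraries and a line at the mean of each day. FABP4 libraries lie highest at 3 d (86.15 to 94.72), CD36 libraries at 9 d (7.7 to 8.6), and ACSL4 libraries spread widely at 0 d and 6 d.

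Markers were read first to see which cells the libraries held. Of 12 adipocyte markers, 11 have a row of their own and 10 passed the filter, with RETN listed at 0 in every library. Their summed FPKM was 15.54, 17.8 and 17.57 at 0 d, 33.7, 36.6 and 38.06 at 3 d, 31.64, 29.53 and 27.45 at 6 d, and at 9 d 44.43, 34.55 and 41.88. The sum was higher in all induced libraries than in those of 0 d, but without DGAT2 it was 15.5, 17.8 and 17.39 at 0 d and lower, 13.41, 14.51 and 14.99, at 3 d. Without DGAT2 it was still above 0 d in all libraries of 6 d (19.32 to 23.93) and of 9 d (27.04 to 35.71). With LEP, which encodes the hormone leptin, left out as well, a choice made after seeing the values, the sums of the other 9 genes overlapped at 0 d (13.33 to 15.41), 3 d (13.41 to 14.99) and 6 d (11.96 to 13.96), and those of 9 d (10.38 to 10.79) were below all of these. CIDEA made up most of these sums at 0 d, with means of 11.9 FPKM at 0 d, 5.81 at 3 d, 7.26 at 6 d, then 6.11 at 9 d. A sum without CIDEA as well was not computed. Means of ADIPOQ, PLIN4, CIDEC, LIPE and GPD1 were above those of 0 d on all later days. Those of PNPLA2 and PCK1 were above 0 d at 3 d and 6 d and below it at 9 d. DGAT2, an enzyme of triglyceride synthesis, was the most abundant of the 11 adipocyte markers on average, with 0 to 0.18 FPKM at 0 d and 20.29 to 23.07 at 3 d. ADIPOQ, which encodes adiponectin and defines mature adipocytes, was called higher on every later day but reached at most 1.64 FPKM in any library, and with a pseudocount of 1 it was called on none of them (0.74, 0.63 and 0.62 on the log2 scale). Its call at 6 d was also lost without any 1 of the 0 d libraries (2.14, 2.26 and 2.26 in place of 2.22), without the first 6 d library (1.42) and in a fit of only the 6 libraries compared (2.22), and that at 9 d (2.34) without the first 0 d (2.26), the first 9 d (2.07) or the second 9 d library (2.06). PLIN1 has a row joined with PEX11A, and its own level cannot be read from that row. Of the 10 tested adipocyte markers, 7 were called higher at 3 d vs. 0 d, beside 8.06% of all tested mRNAs, and 2 lower (CIDEA and LEP), beside 15.2%. The median log2 fold change of the 10 was 1.22 beside -0.06 over all tested mRNAs. With a pseudocount of 1 only DGAT2 (4.41) and LIPE (1.13) of the 7 were called higher, since the values of PLIN4 (0.71), PCK1 (0.23), GPD1 (0.48) and PNPLA2 (0.8), like that of ADIPOQ, were inside the fold limit. PCK1 was also not called without the third 0 d library, alone or with the second 6 d library (0.95), nor PNPLA2 without the second 3 d library (0.94). The call of CIDEA (-1.03) rests on the fold limit and was lost without the second 0 d library (-0.99) or the second 3 d library (-0.91), with a pseudocount of 1 (-0.93), with equal sums (-0.96) and after median-ratio rescaling (-0.94). Against 0 d, 5 of the 10 were called higher and 0 lower both at 6 d and at 9 d (ADIPOQ, CIDEC, DGAT2, LEP and PLIN4). Of all tested mRNAs, 3.39% and 3.41% were called higher on these days, and 7.97% and 7.47% lower. The medians of the 10 were 1.05 and 0.92 beside -0.15 and -0.19 over all tested mRNAs. Of these 5 genes, CIDEC (0.27 and 0.37) and PLIN4 (0.97 and 0.97), like ADIPOQ, were not called with a pseudocount of 1. LEP averaged 2.34 FPKM at 0 d, 0.07 at 3 d, 8.02 at 6 d, then 20.5 at 9 d, so that its log2 fold change turned from -4.07 at 3 d to 1.69 and 3.06 at the later days. The 6 d value was not called with a pseudocount of 0.01 (1.73) or without the 2 libraries highest in the row with 18S rRNA, described with ACSL4 (1.66).

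Markers of skeletal muscle were also present. Of 17 muscle markers 13 have a row of their own, and their summed FPKM was 1915, 1934 and 2032 at 0 d, 454.2, 560.1 and 546.8 at 3 d, 735.2, 690.4 and 772 at 6 d, and at 9 d 778.8, 743.6 and 812.2. The sum was highest in the 0 d libraries and lowest in those of 3 d, with no overlap between either day and the others. Its genes were divided between 3 d and 6 d. Means of MYOD1 (109.2, then 47.7 FPKM), MYOG, MYF5, ACTA1, MYH3 and TNNT3 fell. Those of the rest of the 13 rose, DES by the most FPKM (138, then 314.1). A sum without DES was not computed. A row that joins TTN, which encodes the muscle protein titin, with a LOC gene is not in the sum and had another order, with means of 4984, 3488, 1482 and 1212 FPKM on the 4 days. MYH1 and MYH2 also share a row and are not in the sum. MYL1, a myosin light chain, was the most abundant gene of the sum, and MYOD1, which marks myogenic cells, had 239.76 to 303.43 FPKM at 0 d. Without MYL1 the sum was still lowest at 3 d, with at most 339.6 FPKM there and at least 451.5 on the other days. Against 0 d, 10 of 13 were called lower at 3 d, 9 at 6 d and 10 at 9 d, beside 15.2%, 7.97% and 7.47% of all tested mRNAs. In bulk RNA, fewer cells of a type and less RNA in each cell cannot be told apart.

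Of 11 markers of fibroblasts or preadipocytes, 10 passed the filter. Of these, 4 were called higher at 3 d vs. 0 d (DCN, LUM, THY1 and PDGFRA, a marker of fat precursors), beside 8.06% of all tested mRNAs. Another 5 were called lower (CD34, COL1A1, COL1A2, PDGFRB and VIM), beside 15.2%, and the median log2 fold change of the 10 was -0.46. CD34 was not called with a pseudocount of 1 (-0.56). Their summed FPKM was 154200, 150600 and 159800 at 0 d, 181300, 188700 and 190000 at 3 d, 172300, 169100 and 170500 at 6 d, and at 9 d 263000, 249100 and 264100. It was highest at 9 d and lowest at 0 d, with no overlap between any of the days. Most of it was COL3A1, a fibrillar collagen, at 93893.34 to 175453.95 FPKM over the 12 libraries, and what made its FPKM so high was not tested. Without COL3A1 the sum had no overlap between days either and ranged from 47730 to 50440 at 0 d and from 85740 to 89360 at 9 d, but 6 d (72420 to 76630) was then above 3 d (58220 to 61850). Of 9 endothelial markers only 3 passed the filter, and their summed FPKM was 2.61 to 3.79 over the 12 libraries, with VWF the most abundant gene on average (1.56 to 2.58 FPKM). PECAM1, a defining endothelial marker, did not exceed 0.03 FPKM. Of 10 markers of macrophages and blood cells, 9 have a row, and PTPRC and TYROBP, which define leukocytes, were listed at 0 in every library. The summed FPKM of the 9 was 2.72, 2.58 and 2.24 at 0 d, 207.4, 117.6 and 88.94 at 3 d, 32.15, 30.76 and 16.9 at 6 d, and at 9 d 7.38, 6.59 and 5.78. Most of the sum at 3 d and 6 d was CD163, a scavenger receptor (85.15 to 203.74 FPKM at 3 d), and without it the sums were 1.67 to 2.13 at 0 d and higher, 2.8 to 4.35, in all induced libraries.

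Each later day was compared with 0 d, and the later days with each other, on log2(FPKM + 0.1) with limma over all 15402 mRNAs, a scale that understates the change of low genes. A gene was called when its absolute log2 fold change exceeded 1 and its adjusted p was under 0.05. At 3 d vs. 0 d, 4 of the 10 genes were called higher (FABP4, CD36, LPL and FABP5), beside 8.06% of all tested mRNAs, and limma called 0 lower, beside 15.2%, with 2 lower at an unadjusted p under 0.05 (FABP3 and ACSL1). At 6 d vs. 0 d, 2 were called higher (FABP4 and CD36) beside 3.39%, and 0 lower beside 7.97%, with 4 lower at that unadjusted p (LPL, SLC27A1, SLC27A4 and ACSL3). At 9 d vs. 0 d, the same 2 genes were called higher beside 3.41%, and 0 lower beside 7.47%, with 4 lower at that unadjusted p (FABP3, SLC27A1, SLC27A4 and ACSL3). These 3 comparisons share the 0 d libraries.

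Between the induced days both directions occurred. At 6 d vs. 3 d, 1 gene was called higher (FABP3) beside 9.85% of all mRNAs, and 3 lower (FABP4, LPL and SLC27A4) beside 9.23%. At 9 d vs. 3 d, 1 was called higher (CD36) beside 10.2% and 2 lower (FABP4 and SLC27A4) beside 10.3%. At 9 d vs. 6 d, 2 were called higher (CD36 and LPL) beside 2.55% and 1 lower (FABP4) beside 1.89%.

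In all, 6 of the 10 genes were called in at least 1 of the 6 comparisons, beside 36.4% of all tested mRNAs, FABP4 in 6, CD36 in 5, LPL in 3, SLC27A4 in 2 and FABP3 and FABP5 in 1 each. SLC27A1, ACSL1, ACSL3 and ACSL4 were called in none. The median log2 fold change of the 10 genes against 0 d was 0.75 at 3 d, 0.02 at 6 d, then 0.32 at 9 d, where the medians of all tested mRNAs were -0.06, -0.15 and -0.19. With the libraries rescaled by their median ratio these last medians became 0.02, -0.01 and -0.03, and rescaling to equal sums moved the median of all mRNAs at 9 d vs. 3 d from -0.13 to -0.23.

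**Figure D2:**
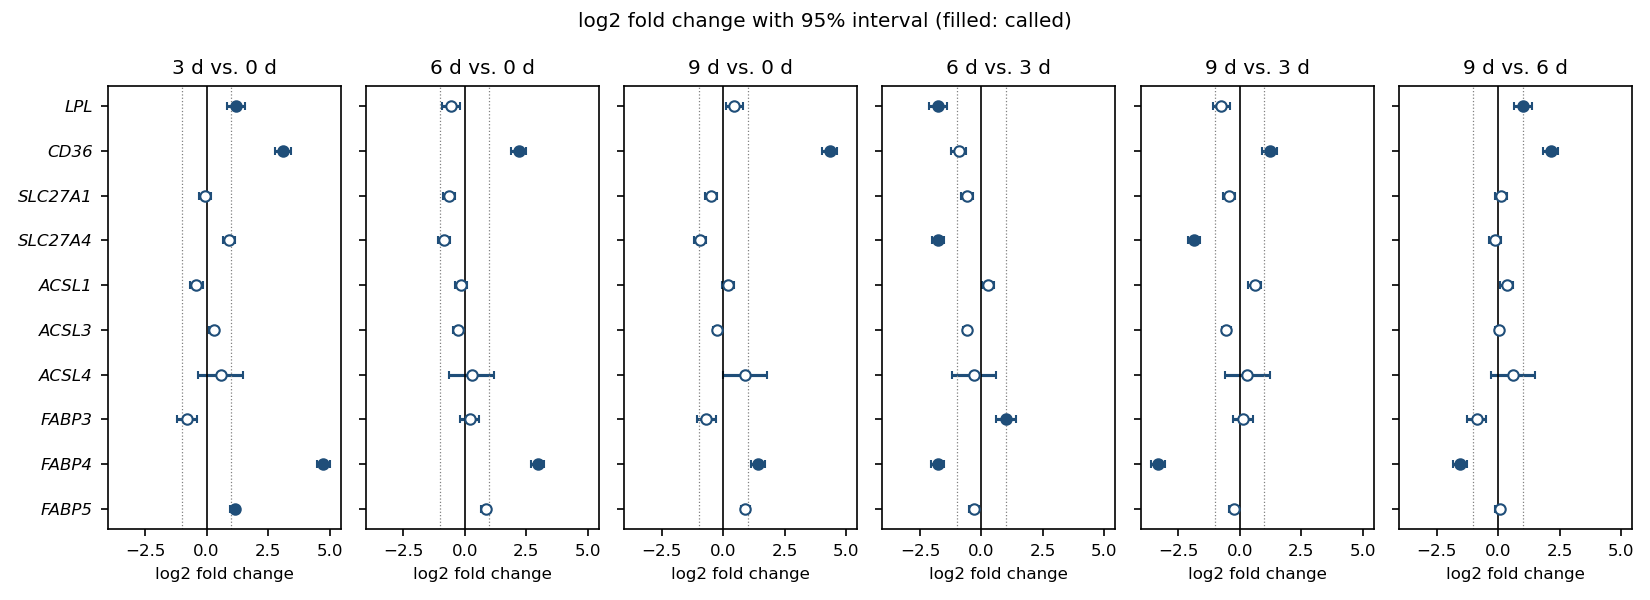
log2 fold change of the 10 genes (horizontal axis, on log2 of FPKM + 0.1) in the 6 comparisons (panels), with bars for the 95% interval, filled points for called genes and dotted lines at -1 and 1. FABP4 is filled in all 6 panels and changes sides, right of 0 against 0 d and left of 0 against 3 d and 6 d.

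LPL encodes lipoprotein lipase, the secreted enzyme that frees fatty acids from triglyceride. It had 4.46, 4.43 and 4.7 FPKM at 0 d, 12.51, 9.74 and 9.55 at 3 d, 2.81, 3.09 and 3.19 at 6 d, and at 9 d 5.96, 5.07 and 7.98. No library of any day overlapped with another day, in the order 3 d, 9 d, 0 d and 6 d. LPL rose at 3 d vs. 0 d (log2 fold change 1.2, SE 0.16, limma adjusted p = 0.000117) and fell from 3 d to 6 d (-1.76, SE 0.16, adjusted p = 9.25e-06). It was called higher again at 9 d vs. 6 d (1.02, SE 0.16, adjusted p = 0.00147), a call just past the fold limit. That value was 0.97 without the first 6 d library, 0.84 without the third 9 d library, 0.85 with a pseudocount of 1 and 0.96 with FPKM rescaled to equal sums, and was then not called. Neighbours in the order differed by less than the fold limit otherwise, with 0.45 at 9 d vs. 0 d (adjusted p = 0.0496) and -0.57 at 6 d vs. 0 d (adjusted p = 0.0194).

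Proteins that mature, anchor or inhibit LPL, or work beside it, formed a list of 20, of which 13 were tested. Against 0 d, 2 were called higher at 3 d (ANGPTL4 and PCSK5) and 5 lower (LIPG, PCSK6, SDC1, SEL1L and VLDLR), with a median log2 fold change of -0.42 beside -0.06 over all mRNAs. At 6 d, 1 was called higher (LIPG) and 1 lower (PCSK6), and at 9 d 3 higher (ANGPTL4, PCSK5 and SDC1) and 1 lower (PCSK6). At 9 d the ANGPTL4 value of 1 was not called without the first 0 d library (0.94), the first 9 d library (0.96) or the third 9 d library (0.92), with a pseudocount of 1 (0.69) or with equal sums (0.94), and the SDC1 value of 1.11 was 0.88 and not called without the second 0 d library.

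ANGPTL4, which inactivates LPL, averaged 1.32 FPKM at 0 d, 11.1 at 3 d, 1.77 at 6 d, then 2.76 at 9 d, with a log2 fold change of 2.98 at 3 d vs. 0 d (SE 0.15, limma adjusted p = 8.98e-08). VLDLR, a lipoprotein receptor that works with LPL, averaged 276.3 FPKM at 0 d, 28.4 at 3 d, 217 at 6 d, then 316.4 at 9 d. Its log2 fold change at 3 d vs. 0 d was -3.28 (SE 0.05, adjusted p = 3.4e-11). LIPG, the related endothelial lipase, followed with 29.3, 3.56, 75.5 and 30.2 FPKM and -3.01 at 3 d vs. 0 d (SE 0.12, adjusted p = 1.81e-08). So LPL and its inhibitor were both highest at 3 d, the day on which VLDLR and LIPG were lowest. SEL1L, needed for the exit of LPL from the endoplasmic reticulum, was also lowest at 3 d (104.6 FPKM, against 246.3 at 0 d). GPIHBP1, which anchors LPL on endothelial cells, was listed at 0 in every library.

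CD36 is the membrane receptor for long-chain fatty acids. It had 0.31, 0.31 and 0.3 FPKM at 0 d, 3.66, 3.1 and 3.46 at 3 d, 1.35, 2.02 and 1.94 at 6 d, and at 9 d 7.7, 7.92 and 8.6. The days did not overlap, and 9 d was highest, followed by 3 d, 6 d and 0 d. The mean FPKM was 11.1 times that of 0 d at 3 d, 5.77 times at 6 d and 26.3 times at 9 d. On the log2 scale CD36 rose by 3.11 (SE 0.14, limma adjusted p = 3.97e-08), 2.18 (adjusted p = 1.43e-06) and 4.33 (adjusted p = 1.88e-08), each against 0 d. From 3 d to 6 d the log2 fold change was -0.92 (adjusted p = 0.000341), which is not past the fold limit. It was -1.02 and called without the second 6 d library, and likewise without the 2 libraries highest in the 18S row. CD36 was the only one of the 10 genes called higher at 9 d vs. 3 d (1.22, SE 0.14, adjusted p = 4.6e-05). The summed fibroblast and preadipocyte markers were also highest at 9 d, with or without COL3A1, their most abundant gene. Without COL3A1 the sum was higher at 6 d (72420 to 76630) than at 3 d (58220 to 61850), where CD36 was lower at 6 d. By gene, 2 of the 10 tested markers were called higher at 9 d vs. 0 d (DCN and LUM), beside 3.41% of all tested mRNAs. In that comparison 1 was called lower, beside 7.47% (CD34, at -2.39, but -0.65 and not called with a pseudocount of 1). Against 3 d, 4 were called higher at 9 d (COL1A1, COL1A2, PDGFRB and VIM), beside 10.2%, and 2 lower (PDGFRA and THY1), beside 10.3%. The part of these markers in the CD36 values was not tested.

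CD36 works in caveolae, the cholesterol-rich pits of the adipocyte membrane, and 15 of 16 genes for caveolae and other membrane partners were tested. Compared with 0 d, 3 were called higher at 3 d (CAV1, FYN and LYN) and 2 lower (CAVIN1 and CAVIN3), with a median log2 fold change of 0.03. At 6 d 3 were called higher (CAV1, CAVIN2 and LYN), and at 9 d 1 was (CAVIN2). The shares of all tested mRNAs called higher were 8.06%, 3.39% and 3.41% on the 3 days, and 15.2% were called lower at 3 d. CAV1, the main caveolin of fat cells, averaged 44.9 FPKM at 0 d, 100.5 at 3 d, 98.1 at 6 d, then 58.5 at 9 d. CAVIN1, which coats caveolae, averaged 71.6, 18.3, 56.8 and 52 FPKM on the same days. The caveolin and its coat protein therefore moved in opposite directions at 3 d, with log2 fold changes of 1.16 and -1.97 (limma adjusted p = 1.68e-07 and 8.01e-08). LYN, a kinase recruited by CD36, averaged 2.37 FPKM at 0 d and 18.1 at 3 d. Its log2 fold change at 6 d vs. 0 d, 1.22, was 1 and not called without the second 6 d library, 0.92 without the 2 libraries highest in the 18S row and 0.99 with a pseudocount of 1. CAVIN2 did not exceed 0.45 FPKM, and its values of 1.51 and 1.12 at 6 d and 9 d were not called with a pseudocount of 1 (0.35 and 0.25), nor was that at 9 d without the third 9 d library (0.94). CAVIN4 has only a row joined with TMEFF1 and was not counted.

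SLC27A1 and SLC27A4 encode the fatty acid transport proteins FATP1 and FATP4, which also have acyl-CoA synthetase activity. SLC27A4 had 9.38, 8.07 and 9.76 FPKM at 0 d, 16.45, 18.88 and 16.4 at 3 d, 4.52, 5.71 and 4.82 at 6 d, and at 9 d 4.85, 4.35 and 4.71. It was highest at 3 d and lowest at 6 d and 9 d, which overlapped with each other and with no other day. SLC27A4 fell from 3 d to 6 d (log2 fold change -1.76, SE 0.11, limma adjusted p = 6.15e-07) and was as low at 9 d (-1.87 vs. 3 d, adjusted p = 3.57e-07). Against 0 d it stayed inside the fold limit, with 0.92 at 3 d, -0.84 at 6 d, then -0.95 at 9 d, although all 3 adjusted p were under 0.05. The 3 d value was 1.01 and called after median-ratio rescaling, and the 9 d value was -1.03 and called without the second 0 d library.

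SLC27A1 was much more abundant. It had 41.47, 44.46 and 45.1 FPKM at 0 d, 38.39, 44.75 and 42.2 at 3 d, 26.79, 32.09 and 25.2 at 6 d, and at 9 d 32.99, 26.79 and 32.37. The 0 d and 3 d libraries overlapped and all lay above the 6 d and 9 d libraries, which overlapped as well. The log2 fold change was -0.64 at 6 d vs. 0 d (95% interval -0.89 to -0.4, limma adjusted p = 0.00127), which is inside the fold limit. SLC27A1 made up 82.8% ± 1.63 (SD, n = 3) of the summed FPKM of the 2 genes at 0 d, 70.8% ± 1.08 at 3 d, 84.8% ± 0.81 at 6 d, then 86.8% ± 0.7 at 9 d. Of the other 4 genes of the family only SLC27A3 passed the filter, at a mean of 0.69 FPKM on its highest day (3 d), and it was called lower at 9 d vs. 3 d (-1.49), but not with a pseudocount of 1 (-0.51).

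ACSL1, ACSL3 and ACSL4 encode long-chain acyl-CoA synthetases, of which ACSL1 is the main form of adipocytes and ACSL4 prefers arachidonic acid. ACSL1 had 37.24, 51.44 and 42.62 FPKM at 0 d, 31.29, 35.17 and 31.18 at 3 d, 38.09, 37.49 and 41.07 at 6 d, and at 9 d 52.66, 45.05 and 51.09. Its order was 9 d, 0 d, 6 d and 3 d, with overlap between all neighbours but 6 d and 3 d. The widest difference, 9 d vs. 3 d, was 0.61 on the log2 scale (95% interval 0.35 to 0.86, limma adjusted p = 0.00142).

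ACSL3, which is found on the endoplasmic reticulum and nascent lipid droplets, had 7.67, 7.01 and 7.19 FPKM at 0 d, 8.82, 9.48 and 8.45 at 3 d, 5.7, 6.17 and 5.9 at 6 d, and at 9 d 5.66, 6.45 and 6.21. The 3 d libraries were highest and did not overlap with the others, and 6 d and 9 d overlapped. At 6 d vs. 3 d the log2 fold change was -0.58 (95% interval -0.75 to -0.41, limma adjusted p = 0.000142). Both genes thus passed the adjusted p in some comparisons and the fold limit in none.

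ACSL4 differed widely between the libraries of 0 d and of 6 d. It had 20.46, 12 and 7.3 FPKM at 0 d, 18.56, 17.66 and 18.26 at 3 d, 19.59, 7.74 and 21 at 6 d, and at 9 d 21.3, 23.12 and 23.23. By mean the order was 9 d, 3 d, 6 d and 0 d, in which 3 d, 6 d and 0 d overlapped. The third 0 d and the second 6 d library were lowest, the second 0 d library came next, and the coefficient of variation was 50.3% at 0 d and 45.2% at 6 d against 2.52% at 3 d and 4.81% at 9 d. The log2 fold change at 9 d vs. 0 d was 0.88 with a 95% interval of -0.02 to 1.79 (limma adjusted p = 0.118). It was 1.26 and called without the first 0 d library. These intervals leave room for changes past the fold limit.

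The row that holds 18S rRNA joins it with 2 LOC genes, so that its own level cannot be read from it. That row, looked up after the ACSL4 values were seen, was highest in the same 2 libraries, the third 0 d (14501.13 FPKM) and the second 6 d (16657.87 FPKM). In the other 10 libraries it lay between 3806.08 and 10663.23 FPKM. EIF4B, a translation initiation factor, had 1388.66 and 1155.01 FPKM in these 2 libraries and 3139.31 to 4339.29 in the others. It was picked as 1 of the 3 genes with the pattern closest to ACSL4 over the same libraries. Low values of EIF4B where ACSL4 was low therefore follow in part from that choice. The second 0 d library, with 12 FPKM of ACSL4, was low in that row (5743.78) and not low in EIF4B (4114.01). Whether the level of that row had a part in the ACSL4 values was not tested. Leaving out the 2 libraries, a choice made after seeing the data, gave log2 fold changes of 0.21 at 3 d, 0.37 at 6 d, then 0.52 at 9 d vs. 0 d, none of them called, and at 6 d vs. 3 d 0.16 in place of -0.3, also not called.

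**Figure D3:**
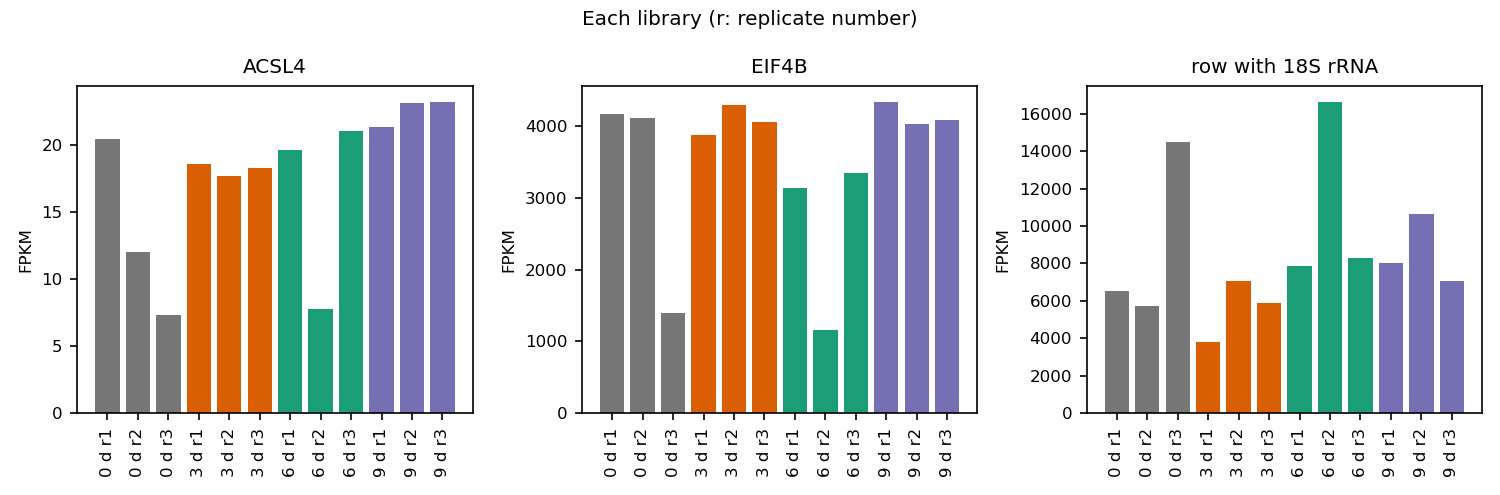
FPKM of ACSL4, of EIF4B and of the row with 18S rRNA (vertical axes, from 0) in each of the 12 libraries, coloured by day and numbered by replicate. The third 0 d and the second 6 d library are lowest in ACSL4 (7.3 and 7.74) and in EIF4B and highest in the 18S row. EIF4B was chosen for its likeness to ACSL4 over these libraries.

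ACSL5, a mitochondrial and endoplasmic reticulum form outside the 10 genes, was the most abundant synthetase on 3 of the 4 days. Its mean was 55.9 FPKM at 0 d, 25.9 at 3 d, 94.9 at 6 d, then 103 at 9 d. ACSL5 and ACSL6 were the 2 tested genes among 4 other synthetases, and both were called lower at 3 d vs. 0 d (-1.11 and -2.25, limma adjusted p = 1.72e-06 and 3.63e-06) and higher at 6 d and 9 d vs. 3 d. With a pseudocount of 1, ACSL6 was not called at 3 d vs. 0 d (-0.97) or at 6 d vs. 3 d (0.83). In the sum of ACSL1, ACSL3, ACSL4, ACSL5 and ACSL6, the share of ACSL5 was 46.1% ± 3.93 (SD, n = 3) at 0 d, 30.2% ± 1.71 at 3 d, 60.5% ± 4.81 at 6 d, then 56.1% ± 0.24 at 9 d. ACSL1 held 35.9% ± 5.11, 37.9% ± 0.91, 24.8% ± 0.66 and 27% ± 1.48 on these days, so that it led the family only at 3 d. The summed FPKM of the 5 genes was lowest at 3 d (85.8 ± 4.51) and highest at 9 d (183.7 ± 6.29).

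FABP4 changed most of the fatty acid-binding proteins. It had 3.36, 3.02 and 3.52 FPKM at 0 d, 94.72, 86.15 and 92.31 at 3 d, 24.51, 26.41 and 28.4 at 6 d, and at 9 d 7.59, 8.84 and 10.79. The 4 days did not overlap, with 3 d highest, followed by 6 d, 9 d and 0 d. The mean at 3 d was 27.6 times that at 0 d, 3.44 times that at 6 d and 10 times that at 9 d. FABP4 rose by 4.75 on the log2 scale at 3 d vs. 0 d (SE 0.12, limma adjusted p = 7.43e-10). It then fell by 1.78 from 3 d to 6 d (adjusted p = 1.14e-06) and by 1.54 from 6 d to 9 d (adjusted p = 1.8e-05), and at 9 d was still above 0 d (1.42, adjusted p = 1.3e-05). CD163 was likewise highest at 3 d and next at 6 d. At 3 d vs. 0 d, 3 of the 5 tested macrophage markers were called higher (CD14, CD163 and CSF1R), beside 8.06% of all tested mRNAs, and 1 lower (MRC1), beside 15.2%. Of these, CSF1R and MRC1 were not called with a pseudocount of 1 (0.5 and -0.53), nor CSF1R without the third 0 d library, alone or with the second 6 d library (1). The part of these markers in the FABP4 values was not tested, and the leukocyte markers PTPRC and TYROBP were at 0 throughout.

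FABP5 had 9.43, 9.17 and 9.08 FPKM at 0 d, 20.77, 19.1 and 21.56 at 3 d, 15.65, 16.73 and 17.52 at 6 d, and at 9 d 15.87, 16.83 and 19.55. All induced libraries were above all 0 d libraries, while 3 d overlapped with 9 d and 9 d with 6 d. FABP5 rose at 3 d vs. 0 d (log2 fold change 1.14, SE 0.09, limma adjusted p = 1.91e-06). Against 0 d it had 0.84 at 6 d, then 0.9 at 9 d (adjusted p = 4.12e-05 and 2.92e-05), inside the fold limit, and the 9 d value was 1.08 and called after median-ratio rescaling.

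FABP3 had 4.76, 4.29 and 6.46 FPKM at 0 d, 3.05, 2.86 and 2.68 at 3 d, 4.63, 6.45 and 6.61 at 6 d, and at 9 d 3.48, 3.25 and 2.72. Libraries of 0 d and 6 d overlapped and lay above those of 3 d and 9 d, which overlapped too. At 6 d vs. 3 d the log2 fold change was 1 (SE 0.18, limma adjusted p = 0.00104) and the call rests on the fold limit. It was 0.96, 0.93 and 0.91, and not called, without the third 3 d, the second 6 d or the third 6 d library, and it was not called with a pseudocount of 1 (0.82) or FPKM rescaled to equal sums (0.93), nor without the 2 libraries highest in the 18S row (0.93). At 9 d vs. 6 d it was -0.87, and -1.04 and called without the first 6 d library. The muscle markers with a row of their own, of tissue in which FABP3 is abundant, had their highest sums at 0 d and their lowest at 3 d (454.2 to 560.1 FPKM), where FABP3 was also low, and higher ones at 6 d (690.4 to 772), the direction of the only call of FABP3. Their sums at 6 d and 9 d overlapped, where those of FABP3 did not. By gene, 4 of the 13 tested muscle markers were called higher at 6 d vs. 3 d (CKM, DES, MYH7 and TNNT1), beside 9.85% of all mRNAs. Another 2 were called lower (MYOD1 and TNNT3), beside 9.23%, as was the joined row with TTN (-1.23). The part of these markers in the FABP3 values was not tested.

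The make-up of the binding proteins changed with these levels. As shares of the summed FPKM of FABP3, FABP4 and FABP5, FABP4 held 18.6% ± 0.44 (SD, n = 3) at 0 d, 79.6% ± 0.36 at 3 d, 54% ± 0.73 at 6 d, then 30.5% ± 2.24 at 9 d. FABP5 held 52.3% ± 4.18, 17.9% ± 0.53, 34% ± 0.83 and 58.8% ± 0.49, and FABP3 held 29% ± 4.26, 2.51% ± 0.18, 12% ± 1.43 and 10.8% ± 2.38. FABP5 was thus the main form at 0 d and 9 d and FABP4 at 3 d and 6 d, in all 3 libraries of each day. The summed FPKM was 17.7 ± 1.3 at 0 d, 114.4 ± 5.54 at 3 d, 49 ± 3.91 at 6 d, then 29.6 ± 3.12 at 9 d.

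**Figure D4:**
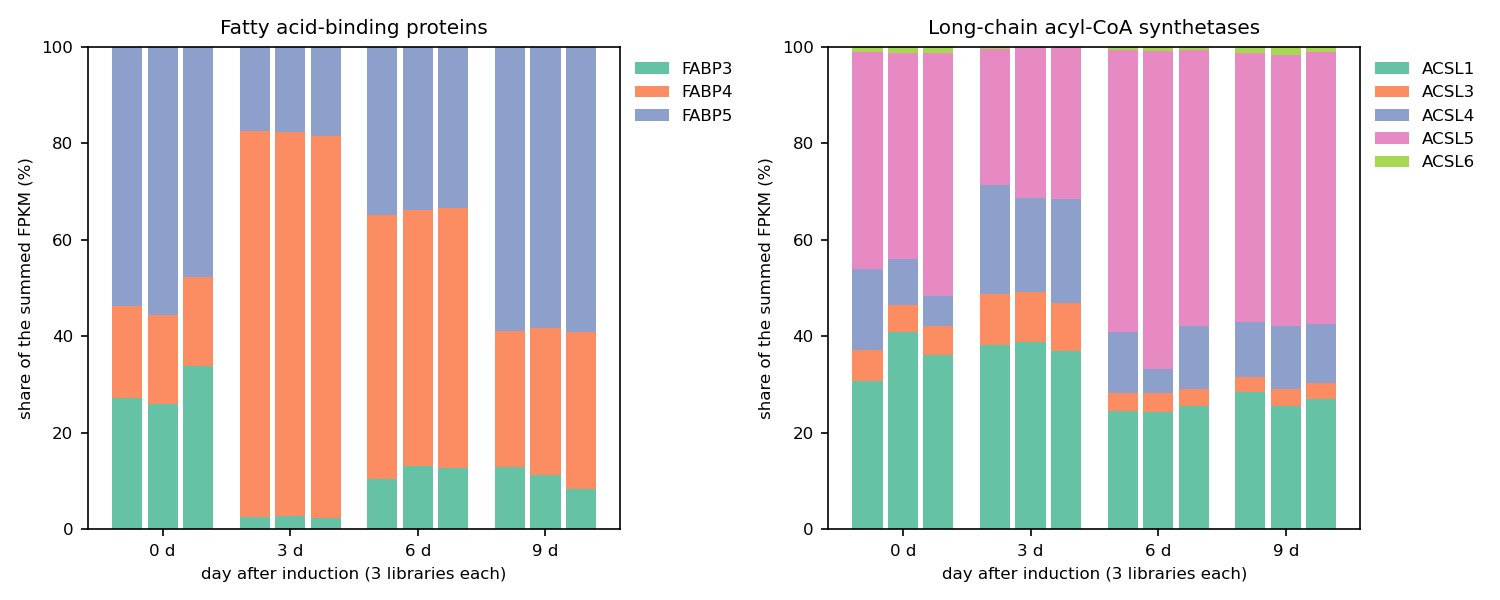
Share of the summed FPKM (vertical axis, percent, from 0 to 100) of 3 fatty acid-binding proteins (left) and 5 long-chain acyl-CoA synthetases (right) in each of the 12 libraries, grouped by day. FABP4 takes 79.2% to 79.91% of its sum in the 3 d libraries, and ACSL5 takes the largest share of its sum on every day but 3 d.

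FABP4 and FABP5 lie close together in the order of genes of the RefSeq annotation of assembly ARS-UCD2.0, with PMP2 and FABP9 between them and FABP12 beyond FABP4. PMP2, FABP9 and FABP12 were listed at 0 in every library. None of the 7 other genes of this family passed the filter.

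Acyl-CoA is held and hydrolysed inside the cell by binding proteins and thioesterases, and 11 of 15 such genes were tested. The median log2 fold change of the 11 at 3 d vs. 0 d was 0.06. Of these, 1 was called higher (ACOT13), beside 8.06% of all tested mRNAs, and 1 lower (ACOT7), beside 15.2%. Neither call held with a pseudocount of 1 (0.93 and -0.88), and ACOT13 was not called without the first 0 d library (0.98) or the third 3 d library (0.99). ACOT7 averaged 2.33 FPKM at 0 d, 0.81 at 3 d, 2.61 at 6 d, then 2.39 at 9 d, and was called higher at 6 d and 9 d vs. 3 d (1.57 and 1.45). ACBD4, an acyl-CoA-binding protein, was called lower at 9 d vs. 3 d (-1.12). With a pseudocount of 1 these 3 values were 0.99, 0.9 and -0.55 and not called. Of 12 nuclear receptors and C/EBP factors that control these genes or bind fatty acids, 9 were tested. Only CEBPD, an early factor of adipogenesis, was called against 0 d, higher at 3 d (1.16, SE 0.07, limma adjusted p = 4.42e-07), from a mean of 1096 FPKM to 2440. CEBPB was not called, but its mean was 277.8 FPKM at 0 d and 550.5 at 3 d, without overlap between these libraries. CEBPD at 6 d vs. 0 d had 1, just inside the fold limit, and was called after median-ratio rescaling (1.14), without the third 0 d library (1.05), without the first 6 d library (1.02) and without the 2 libraries highest in the 18S row (1.04). Between the induced days, RXRA, a partner of the PPAR receptors, was called lower at 6 d vs. 3 d (-1.01), but not without the second 3 d (-0.97), the third 3 d (-0.98) or the third 6 d library (-0.99), with a pseudocount of 1 (-0.94) or after median-ratio rescaling (-0.95). CEBPA, a factor of mature adipocytes, did not exceed 0.26 FPKM in any library, and its call lower at 9 d vs. 3 d (-1.09) was lost with a pseudocount of 1 (-0.22). With a pseudocount of 0.01 it was also called higher at 3 d vs. 0 d (1.16) and lower at 6 d vs. 3 d (-1.52).

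**Figure D5:**
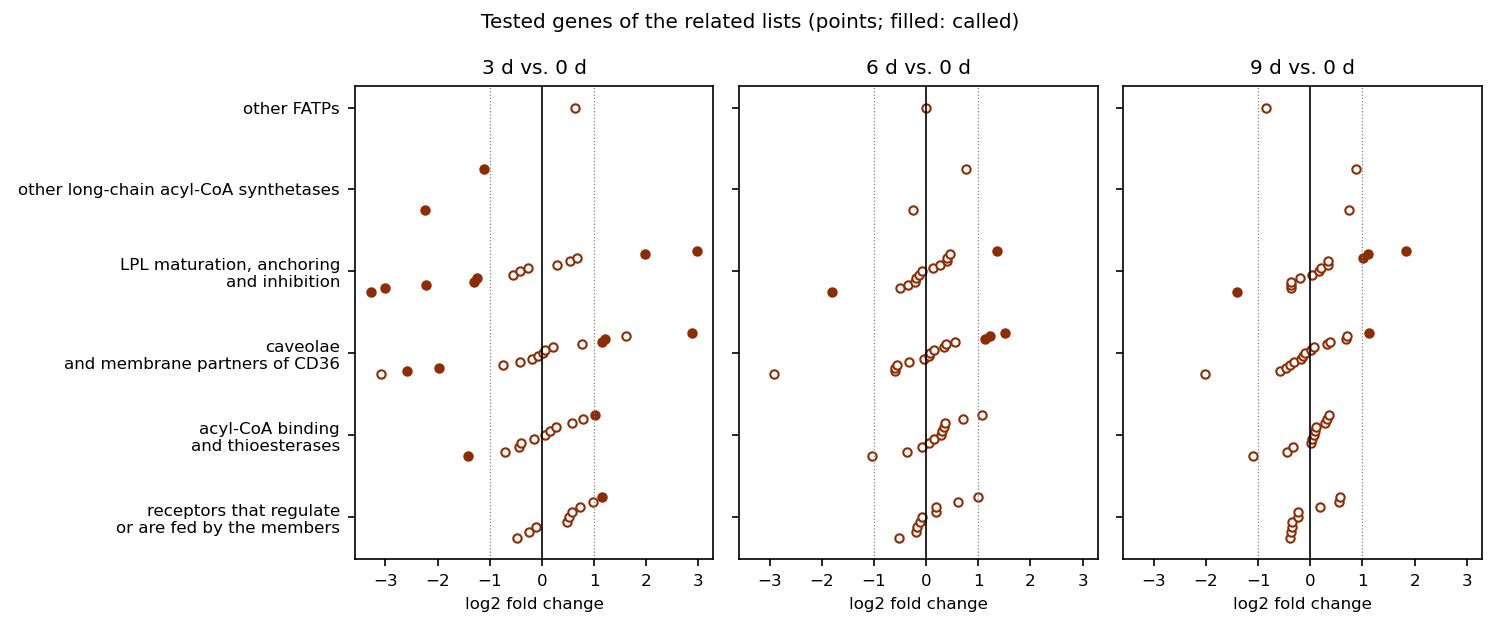
log2 fold change (horizontal axis, on log2 of FPKM + 0.1) of the tested genes of 6 related lists at 3, 6 and 9 d vs. 0 d, with a point for each gene, filled when called, and dotted lines at -1 and 1. The filled points of the LPL list lie on both sides of 0 at 3 d, 2 on the right and 5 on the left.

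Among themselves, the 10 genes did not share 1 pattern. Over the 12 libraries, the closest pair on log2(FPKM + 0.1) was SLC27A4 with ACSL3 (Pearson r = 0.97), followed by FABP5 with CD36 (0.85) and FABP4 with FABP5 (0.85). The most opposed pair was FABP3 with LPL (-0.82), then FABP4 with ACSL1 (-0.74). These r describe 12 libraries that fall into 4 days, and the libraries of a day are not independent of each other in this respect.

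The mRNAs with the pattern most like each gene were found among 10206 others with a mean of at least 1 FPKM. For FABP4 they were DKK1, MAOA and ANPEP (r = 0.99 for each). For CD36 they were SLC2A3, MASP1 and CTSF (0.99 for each), and for SLC27A4 they were ADAMTS1, XXYLT1 and the joined row of KSR1 (0.99 for each). Those of FABP5 were ELOVL5, DDIT4 and PNRC1 (0.98 for each), and those of ACSL3 were DNAJC16, IPO7 and PPM1L (0.98, 0.97 and 0.97). LPL was closest to EIF2AK4, APLP2 and SMCHD1 (0.97 for each), SLC27A1 to TANGO2, PPP2R3B and CPT1A (0.96 for each) and FABP3 to RAB5IF, HDDC2 and DPAGT1 (0.95, 0.95 and 0.94). The lowest values were those of ACSL1, with NMT2, XYLT2 and NRXN2 (0.92, 0.92 and 0.91), and of ACSL4, with PPP1CB, SNPH and EIF4B (0.93, 0.87 and 0.87).

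Circular RNAs gave another readout of the same genes. Back-spliced reads per library numbered 5358 to 10729, and 95674 in all. Of the 14070 circRNAs, 11 came from 4 of the 10 genes, 6 from ACSL3, 3 from CD36 and 1 each from ACSL1 and SLC27A1, with 66 reads together. The most abundant was circRNA2078 of ACSL3, which joins 2 exons at chr2:111090894-111092340 (plus strand). Positions are as deposited and were taken to be on ARS-UCD1.2, the build of the study's methods. The chromosome is that of ACSL3 in the RefSeq annotation of ARS-UCD2.0. circRNA2078 had 3, 2 and 2 reads at 0 d, 1, 8 and 1 at 3 d, 1, 2 and 2 at 6 d, and at 9 d 6, 2 and 3. These overlap between all days. circRNA2555 of ACSL3, with 8 exons at chr2:111093192-111104173, had 10 reads, of which 6 were in the second 3 d library.

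Of the 11 circRNAs 4 had at least 5 reads and were tested. With edgeR, 0 of the 4 were called at 3 d, 6 d or 9 d vs. 0 d, beside 0.813%, 0.53% and 0.566% of all 2828 tested circRNAs, and 0 had an unadjusted p under 0.05. DESeq2 also called 0, with 0 under that unadjusted p. With the reads of each gene summed, edgeR called neither ACSL3 nor CD36, but CD36 at 6 d vs. 0 d had an unadjusted p under 0.05 (0.0485, adjusted p = 0.681). CD36 then had 0 reads at 0 d and 6 at 6 d, all of them in the third 6 d library. The 4 circRNAs had between 6 and 33 reads each over the 12 libraries.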

How the data were processed

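Titles gave the day of each of the 12 libraries. Reads were trimmed and aligned by the authors, and the deposited mRNA values are FPKM. The submitters' processing notes name HISAT2 2.0 and StringTie 1.3.0, and a mouse build that does not suit cattle, where the study's methods name ARS-UCD1.2. For circRNAs the deposited values are a count of back-spliced reads per library, called by the authors with CIRCExplorer2 and CIRI. The 12 SRPBM columns beside them, which are scaled counts per sample, were not used. The lncRNA and miRNA tables were not used here.

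From the FPKM, limma 3.58.1 (eBayes with a trend, not robust) compared the days on log2(FPKM + 0.1) in 1 fit, for mRNAs with a mean of at least 0.1. The study's methods name edgeR for mRNAs, which FPKM do not allow. circRNAs with at least 5 reads were tested with edgeR 4.0.16 (TMM, quasi-likelihood), with DESeq2 1.42.0 as an alternative. To be called, a feature had to pass 1 in absolute log2 fold change, with its p, adjusted by Benjamini-Hochberg over all features of the comparison, under 0.05. The 727 rows with joined gene names were not split. The result of 1 of the listed receptors is not reported here. Genes that could be named were the 10 genes, listed genes that were called in a comparison or reached a mean of 10 FPKM on a day, the 3 most similar mRNAs of each gene by Pearson r (mean of at least 1 FPKM, no row whose name begins with LOC or TRNA) and circRNAs with at least 10 reads. GPIHBP1, PMP2, FABP9 and FABP12, which are at 0, the row with 18S rRNA and its use to leave out 2 libraries, and the marker genes named singly were chosen after their values were seen. The genes and lists were chosen with earlier results of these data known. Alternatives were other pseudocounts, filters and scalings, smaller fits, a replicate block, summed rows and leaving out each library. The models were also tested on simulated data, and the outcome is not given here. R 4.3.3, Python 3.11.15, NumPy 2.4.6, pandas 2.3.3 and Matplotlib 3.10.9 were used.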

Additional observations from a re-analysis of the deposited data

How the results depend on the processing

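The number of the 10 genes called stayed within 1.5 times that reported under each alternative and in each of the 6 comparisons. Leaving out each library in turn gave 4 at 3 d vs. 0 d, and the circRNAs called stayed at 0. In other comparisons single libraries changed calls of FABP3, CD36, LPL, SLC27A4 and ACSL4, as given with each gene. A steady number can hide such changes. Without the first 6 d library, LPL lost and FABP3 gained a call at 9 d vs. 6 d. Apart from the fits without a single library, 11 settings gave 660 recomputed log2 fold changes of the 10 genes. Of these, 0 called ones changed direction, 5 lost and 3 gained a call, and 4 uncalled ones changed sign. A pseudocount of 1 lowered the calls among all mRNAs from 3585 to 2184 at 3 d, from 1749 to 967 at 6 d and from 1675 to 888 at 9 d vs. 0 d, from 2939 to 1688 and from 3157 to 1863 at 6 d and 9 d vs. 3 d, and from 683 to 368 at 9 d vs. 6 d. A mean of at least 1 FPKM, which leaves fewer genes tested, gave 1114 at 9 d vs. 0 d. After median-ratio rescaling 668 mRNAs were higher and 818 lower at 9 d vs. 0 d, in place of 525 and 1150. The cause was not tested. Replicate numbers showed no clear pairing of the libraries. Deviations from the day means correlated at -0.1 to 0.11 over 18 pairs of one number (median 0.02). Over 36 pairs of different numbers they correlated at -0.19 to 0.18 (median -0.01). Of the 12 libraries 5 correlated best with their own number, among them the third libraries of 0 d, 3 d, 6 d and 9 d. With a replicate block, 4, 2, 2, 4, 3 and 3 genes were called in the 6 comparisons, as without it, and 0 circRNAs.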
